A study of Mus musculus with 9 samples.

Results

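Members of the BCL2 family were examined in splenic B cells of transgenic and wildtype mice. They were chosen by gene symbol, 10 of the 22174 genes in the authors' table of normalized values. The pro-survival members were Bcl2, Mcl1, Bcl2l1 and Bcl2a1b, and the pro-death members were Bax, Bak1, Bcl2l11, Bbc3, Pmaip1 and Bid. RNA-sequencing covered 9 mice with 1 library per mouse, all labelled C57/BL6NTac. There were 3 groups of 3 mice. Eµ-MTCP1 mice (Z2551, Z2606 and Z2641) carried a human MTCP1 transgene, Eµ-TCL1 mice (B4376, B4437, C1594) a human TCL1 transgene, and wildtype mice (Z2754, Z2755, Z2785), littermates free of the MTCP1 transgene, none. Values by mouse are given in this order throughout. Both transgenes were driven by a VH promoter and the immunoglobulin heavy chain Eµ enhancer, which direct expression to B cells, and the transgenic mice were age-matched and taken at a high disease burden. The Eµ-MTCP1 mice came from founder line Z36, so that transgene insertion and genotype cannot be told apart in that group. No age in months was given for these mice in the sources used here. B cells were enriched with a pan-B isolation kit before RNA extraction, and the lane number in the column name of wildtype mouse Z2755 differed from that of the other 8 libraries.

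The BCL2 family decides at the mitochondrial outer membrane whether a stressed cell dies. BCL2, MCL1, BCL-xL (Bcl2l1) and A1 (Bcl2a1) hold the effectors BAX and BAK (Bak1) inactive, while BH3-only proteins such as BIM (Bcl2l11), PUMA (Bbc3), NOXA (Pmaip1) and BID relieve that block or activate the effectors. BAX and BAK then form pores that release cytochrome c and start the caspase cascade. Chronic lymphocytic leukemia cells are known for their dependence on BCL2, which the drug venetoclax targets, and normal B cells depend on MCL1, A1 and BIM for the control of their numbers.

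Deposited values of 3 kinds were set side by side, since each sees a different part of a gene. The first, used for the tests unless another is named, holds reads assigned by Salmon to a reference of coding sequences with the human transgenes added. It is called the coding-sequence reference below, and its length matched the annotated coding part within 3 bases for 99.72% of transcripts. The second is a full-transcript reference, and the third is a table of whole counts per gene. Libraries held 6464089 to 8053017, 11438681 to 14070588 and 9312687 to 11428759 reads in these tables, respectively, and 3 reads on the coding-sequence reference came to 0.326 to 0.495 CPM, the reads of a gene scaled to library size with TMM factors. The authors' normalized log2 value of human TCL1A was 14.9 to 15.6 in the Eµ-TCL1 mice and at most 6.96 elsewhere, and that of human MTCP1 was 11.1 to 12.3 in the Eµ-MTCP1 mice and at most 6.19 elsewhere, so both transgenes followed the labels.

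The shared feature that gives the family its interactions is the BH3 segment, whose core holds a leucine and, 4 residues on, a glycine followed by an aspartate. A script searched the reading frame of 1 annotated transcript per gene (GENCODE M21, GRCm38) for codons of leucine, any 3 residues, glycine and aspartate. Coding sequences of the 10 genes and of the A1 copies Bcl2a1a and Bcl2a1d were searched, apart from Pmaip1, whose sequence is not shown. The run was found once in each of 7 genes. Among all coding sequences of 172 to 331 residues, the range of the transcripts searched, 431 of 6360 (6.78%) held it. The windows below are printed 5′ to 3′ on the coding strand, with the 6 codons of the run in capitals. They share the run because the search required it, and show how the bases within and around it vary between members.
Bcl2 (chr1:106712578-106712604, minus strand): accCTCCGCCGGGCTGGGGATgacttc
Mcl1 (chr3:95659433-95659459, plus strand): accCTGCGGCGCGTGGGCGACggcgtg
Bcl2l1 (chr2:152829700-152829726, minus strand): gcgCTGAGAGAGGCAGGCGATgagttt
Bax (chr7:45466000-45466026, minus strand): tgtCTCCGGCGAATTGGAGATgaactg
Bak1 (chr17:27022534-27022560, minus strand): cagCTTGCTCTCATCGGAGATgatatt
Bcl2l11 (chr2:128147147-128147173, plus strand): gagCTGCGGCGGATCGGAGACgagttc
Bid (chr6:120897292-120897318, minus strand): catCTCGCCCAAATAGGCGATgagatg
Each window lies within 1 coding exon. The run was not found in Bbc3 or in the 3 A1 copies searched, which says only that these codons do not follow each other there. Bcl2a1b differed from Bcl2a1d at 6 and from Bcl2a1a at 11 of 516 coding bases (98.8 and 97.9% identity), so reads of the A1 copies were hard to assign and Bcl2a1b values are uncertain.

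With the quasi-likelihood test of edgeR on the coding-sequence reference, all 10 members passed the expression filter and none was called at an adjusted p under 0.05. The background was 9.48% of 11165 genes called in Eµ-MTCP1 against wildtype, 9.20% in Eµ-TCL1 against wildtype, 13.1% for both transgenic groups against wildtype and 0.0448% between the transgenic groups. At an unadjusted p under 0.05, Pmaip1 passed in 3 of these 4 comparisons and no other member passed, where 25% (Eµ-MTCP1), 25.1% (Eµ-TCL1), 29.1% (both) and 6.42% (between the transgenic groups) of all genes did. The members' 1, 0 and 1 of 10 against wildtype were below these shares. DESeq2 called 1 member, Pmaip1, in Eµ-MTCP1 and in both groups against wildtype (12.9% and 16.6% of genes called), and limma-voom called it for both groups together (12.5%) but no member in Eµ-MTCP1 or Eµ-TCL1 alone (7.95% and 8.0%). DESeq2 called none in Eµ-TCL1 mice (13.2%). On the full-transcript reference Pmaip1 was called in the same pair of comparisons, where 9.66% and 13.4% of genes were called. With whole counts per gene it was called in Eµ-MTCP1 against wildtype alone of the 3 comparisons with wildtype, where 10% (Eµ-MTCP1), 10% (Eµ-TCL1) and 14% (both) of genes were called. With edgeR on the gene count table, Bbc3 and Bcl2l11 (Eµ-TCL1) and Bcl2l11 and Pmaip1 (both groups) had an unadjusted p under 0.05, as had 25.1% and 29.5% of genes. Of the genes called on the coding-sequence reference, 613 were higher and 446 lower in Eµ-MTCP1, 566 and 461 in Eµ-TCL1 and 776 and 688 in both groups. Scaling by library size alone gave 391 and 730, 446 and 593, and 560 and 1161, with the median of all genes shifted by -0.255, -0.152 and -0.208. The median log2 fold change of the 10 members on the coding-sequence reference was -0.05 in Eµ-MTCP1 and -0.06 in Eµ-TCL1 mice, against -0.02 and -0.01 over all genes tested. All comparisons with wildtype share the same 3 wildtype mice.

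**Figure D1:**
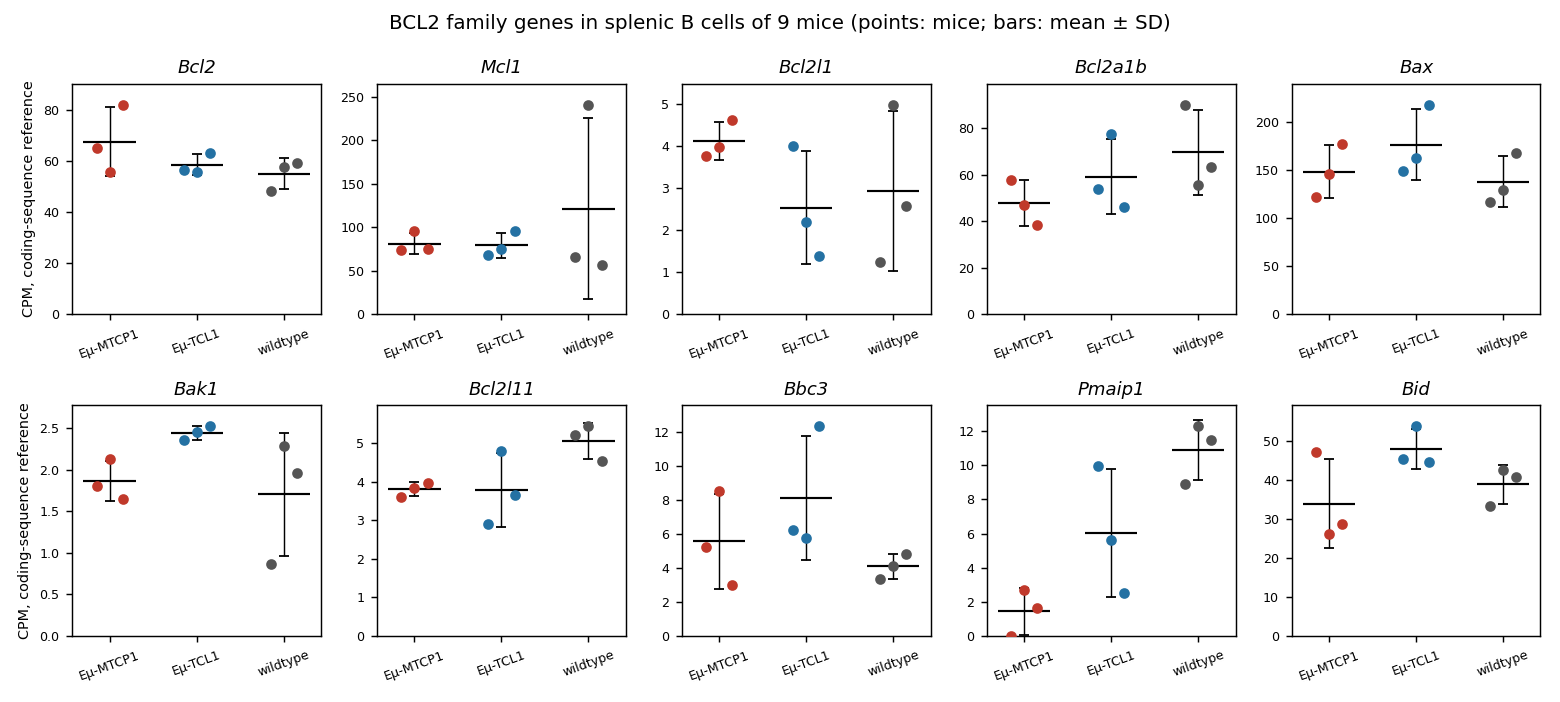
CPM of the 10 genes on the coding-sequence reference in each of 9 mice, on linear axes that start at 0. Points are mice, horizontal bars are group means and error bars are SD (n = 3). The Eµ-MTCP1 points of Pmaip1 lie at or below 2.70 CPM, under the 3 wildtype points at 8.92 to 12.3 CPM.

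Ranges between groups gave the same picture. In Eµ-MTCP1 mice 2 members, Bcl2l11 and Pmaip1, lay below every wildtype library, and none lay above, where 29.9% of all genes did not overlap with wildtype. In Eµ-TCL1 mice 3 members, Bak1, Bbc3 and Bid, lay above every wildtype library and none below, against 32.6% of all genes. With both transgenic groups set against wildtype no member was free of overlap, against 18.6% of all genes. In the gene count table, among genes with a mean of at least 10 reads, Pmaip1 was free of overlap in Eµ-MTCP1 mice (background 30.3%), Bbc3 and Bcl2l11 were free of overlap in Eµ-TCL1 mice (32.8%), and no member was when both groups were compared (19.3%). TPM, the authors' length-corrected share of each library, has no TMM factor. By TPM, Bcl2l11 and Pmaip1 of all 6 transgenic mice lay below every wildtype mouse on both references. Lack of overlap was seen in 20.7% of genes on the coding-sequence reference (1816 below and 496 above) and 20.7% on the full-transcript reference (2229 and 718). In Eµ-MTCP1 mice alone Bcl2a1b also lay below on both references (3071 of 11165 and 4111 of 14250 genes below), and Bax on the full-transcript one. In Eµ-TCL1 mice alone Bbc3 lay above on the full-transcript reference (1519 of 14250 genes above).

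Among the pro-survival members, Bcl2 (ENSMUSG00000057329, chr1:106538178-106714274) encodes the founding inhibitor of mitochondrial apoptosis. Its level was 64.8, 55.5 and 81.9 CPM for the Eµ-MTCP1 mice. It was 56.4, 55.6 and 63.2 CPM for the Eµ-TCL1 mice and 48.2, 57.5 and 59.2 CPM for the wildtype mice. The groups overlapped, with Z2641 highest and wildtype mouse Z2754 lowest. The log2 fold change against wildtype was 0.29 ± 0.19 (SE, edgeR adjusted p = 0.367) in Eµ-MTCP1 and 0.09 ± 0.19 (adjusted p = 0.819) in Eµ-TCL1 mice. The gene count table gave 0.22 and 0.10. The 3 tested genes whose log2 CPM followed Bcl2 most closely over the 9 libraries were Lmbr1l (Pearson r = 0.971), Adrm1 (0.950) and Met (0.946). These r values are a description over libraries that share depth and group differences.

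Mcl1 (ENSMUSG00000038612, chr3:95658788-95663176) encodes a short-lived inhibitor needed by developing and germinal centre B cells. On the coding-sequence reference the Eµ-MTCP1 mice had 73.8, 95.3 and 75.0 CPM and the Eµ-TCL1 mice 68.1, 74.9 and 95.5 CPM. Wildtype mice had 66.4, 241 and 57.3 CPM, so that the library of Z2755 stood apart from the other 8. The corresponding reads were 536, 2221 and 379 in the wildtype mice. On the full-transcript reference the same mice had 205, 330 and 135 CPM, and 243, 400 and 161 CPM in whole counts per gene, where the excess of Z2755 was smaller. Reads on the coding sequence amounted to 43.5% of the reads in the gene count table for Z2755 and to 15.6 to 24.7% in the other 8 libraries. The log2 fold change against wildtype was -0.58 ± 0.47 (edgeR adjusted p = 0.471) in Eµ-MTCP1 and -0.61 ± 0.46 (adjusted p = 0.453) in Eµ-TCL1 mice on the coding-sequence reference, and turned to 0.07 ± 0.29 and 0.05 ± 0.29 in the gene count table. Without Z2755 it was 0.36 (adjusted p = 0.408) and 0.33 (adjusted p = 0.467) on the coding-sequence reference. The direction of the Mcl1 difference rested on that library, which also carried the other lane number. Summed CPM of 9 neutrophil markers was 4974 in Z2755, 2761 in Eµ-MTCP1 mouse Z2641 and 29.8 to 437 in the other 7 libraries, with Mpo, the myeloperoxidase of granulocyte precursors, at 2324 and 937 CPM in the former pair. Mcl1 was 75.0 CPM in Z2641, and the part of these cells in the Mcl1 reads was not tested.

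Bcl2a1b (ENSMUSG00000089929, chr9:89199209-89207827) is 1 copy of the mouse A1 gene, an NF-κB-induced inhibitor of the B lineage. Eµ-MTCP1 mice had 57.9, 47.2 and 38.5 CPM, Eµ-TCL1 mice 53.8, 77.5 and 46.4 CPM, and wildtype mice 90.2, 55.6 and 63.3 CPM. The ranges overlapped by CPM. By TPM the Eµ-MTCP1 mice lay below wildtype on both references, with 41.5 to 78.8 against 88.2 to 115 TPM on the full-transcript one. The wildtype mean of 69.7 ± 18.2 CPM (SD, n = 3) was above the 47.9 ± 9.74 CPM of the Eµ-MTCP1 mice. The log2 fold change for Eµ-MTCP1 against wildtype was -0.54 ± 0.26 (edgeR adjusted p = 0.233). In Eµ-TCL1 mice it was -0.23 ± 0.26 (adjusted p = 0.631). The gene count table gave only 7.73 to 20.4 CPM for Bcl2a1b and 19.7 to 38.4 CPM for its copy Bcl2a1d. Bcl2a1d had 19.99 to 34.5 CPM in Eµ-MTCP1, 19.4 to 21.4 CPM in Eµ-TCL1 and 25.8 to 45.8 CPM in wildtype mice on the coding-sequence reference, a log2 fold change of -0.71 ± 0.28 (adjusted p = 0.151) for Eµ-TCL1 mice. Bcl2a1a stayed at or below 1.51 CPM, and Bcl2a1c had 0 reads in every library.

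Bcl2l1 (ENSMUSG00000007659, chr2:152780668-152831728), which encodes BCL-xL, was low. It had 23, 28 and 28 reads in Eµ-MTCP1, 29, 18 and 10 in Eµ-TCL1 and 10, 46 and 17 in wildtype mice. By CPM, wildtype mice held both the highest library (Z2755) and the lowest (Z2754). The log2 fold changes of 0.48 ± 0.62 (Eµ-MTCP1) and -0.21 ± 0.62 (Eµ-TCL1) were smaller than their errors (edgeR adjusted p = 0.667 and 0.867). Its relative Bcl2l2, which encodes BCL-w, was below the expression filter on the coding-sequence reference with at most 4 reads. In the gene count table Bcl2l2 had 29 to 41 reads in Eµ-MTCP1, 44 to 90 in Eµ-TCL1 and 25 to 36 in wildtype mice, a log2 fold change of 1.24 ± 0.43 for Eµ-TCL1 against wildtype (edgeR adjusted p = 0.0971).

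Of the effectors, Bax (ENSMUSG00000003873, chr7:45461697-45466898) had the highest mean per length of the 10 genes in each group, though in wildtype mice it overlapped with Mcl1. It had 122, 146 and 177 CPM in the Eµ-MTCP1 mice, 149, 162 and 218 CPM in the Eµ-TCL1 mice and 117, 129 and 168 CPM in wildtype mice. By CPM all groups overlapped, and the log2 fold changes were 0.10 ± 0.22 (edgeR adjusted p = 0.802) and 0.35 ± 0.22 (adjusted p = 0.363). By TPM on the full-transcript reference the Eµ-MTCP1 mice lay below wildtype for Bax, with 132.7 to 181.1 against 188.5 to 208.7 TPM. There 4111 of 14250 genes lay below wildtype in these mice. Bak1 (ENSMUSG00000057789, chr17:27019810-27029009), the second pore former, was among the 3 lowest genes per length, with 11, 15 and 10 reads in Eµ-MTCP1, 17, 20 and 18 in Eµ-TCL1 and 7, 21 and 13 in wildtype mice. Its log2 fold changes were 0.13 ± 0.58 and 0.51 ± 0.57 (adjusted p = 0.908 and 0.624). Eµ-TCL1 mice lay above wildtype by CPM on the coding-sequence reference, with 2.35 to 2.52 against 0.867 to 2.28 CPM, but the groups overlapped in the gene count table. On the full-transcript reference all 6 transgenic mice lay above wildtype, with 4.92 to 8.67 against 3.37 to 4.60 CPM, and log2 fold changes of 0.62 ± 0.37 and 0.69 ± 0.37 (adjusted p = 0.327 and 0.282). That lack of overlap was seen in 18.6% of 14250 genes there, and by TPM on the same reference Bak1 overlapped, with 1.67 to 3.60, 1.93 to 3.08 and 1.69 to 2.33 TPM in Eµ-MTCP1, Eµ-TCL1 and wildtype mice. The third effector, Bok, had at most 1 read on the coding-sequence reference and 8 in the gene count table.

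Pmaip1 (ENSMUSG00000024521, chromosome 18) encodes NOXA, a p53-responsive BH3-only protein that binds MCL1 and A1. On the coding-sequence reference Eµ-MTCP1 mice had 0, 19 and 10 reads (0, 2.70 and 1.65 CPM). Eµ-TCL1 mice had 72, 46 and 18 reads (9.96, 5.65 and 2.52 CPM), and wildtype mice had 72, 113 and 76 reads (8.92, 12.3 and 11.5 CPM). All Eµ-MTCP1 mice lay below all wildtype mice, while Eµ-TCL1 mice reached from the Eµ-MTCP1 to the wildtype range. The count of 0 in Z2551 allows up to 3 reads, or 0.492 CPM. The gene count table held more reads and the same order of the group means. There Eµ-MTCP1 mice had 3, 112 and 64 reads, Eµ-TCL1 mice 375, 192 and 116, and wildtype mice 807, 582 and 304.

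The Pmaip1 difference between Eµ-MTCP1 and wildtype mice had a log2 fold change of -2.88 ± 0.86 on the coding-sequence reference, which did not pass the threshold (edgeR adjusted p = 0.0625). It was -2.99 ± 0.73 (adjusted p = 0.0297) on the full-transcript reference and -2.96 ± 0.80 (adjusted p = 0.0429) in the gene count table, 7.97-fold and 7.75-fold lower. In the gene count table the call was lost without Eµ-MTCP1 mouse Z2641 (adjusted p = 0.0876), Eµ-TCL1 mouse B4437 (0.0544), or wildtype mouse Z2785 (0.062), Z2755 (0.102) or Z2754 (0.156), with log2 fold changes of -2.40 to -3.73 over all 9 omissions. Without Z2551, which had the fewest reads, it was -2.40 (adjusted p = 0.0354) there and -2.31 (adjusted p = 0.0682) on the coding-sequence reference. In Eµ-TCL1 mice the log2 fold change was -0.85 ± 0.78 (adjusted p = 0.544), and -1.11 ± 0.75 (adjusted p = 0.391) in the gene count table. Eµ-TCL1 against Eµ-MTCP1 gave 2.03 ± 0.85 (unadjusted p = 0.0369, edgeR adjusted p = 0.72), so a difference between the transgenic groups was not established by this test. The paper lists Pmaip1 among the genes overrepresented in Eµ-TCL1 over Eµ-MTCP1 mice, by DESeq2 with its own cutoffs of fold change and p-value. By TPM on the full-transcript reference Pmaip1 was 0.279, 3.90 and 2.36 in Eµ-MTCP1, 15.4, 7.15 and 5.14 in Eµ-TCL1 and 21.5, 26.6 and 15.7 in wildtype mice, where the highest Eµ-TCL1 mouse was just under the lowest wildtype mouse. As in any bulk sample, fewer Pmaip1-expressing cells and less Pmaip1 RNA per cell cannot be told apart. The authors' CLEAR filter on coverage kept Pmaip1 in 8 libraries and dropped it in Z2551. Chosen after the values of Pmaip1 were seen, the genes whose log2 CPM was most like it were Dqx1 (r = 0.945), Hnrnph2 (0.939) and Ccdc93 (0.937).

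**Figure D2:**
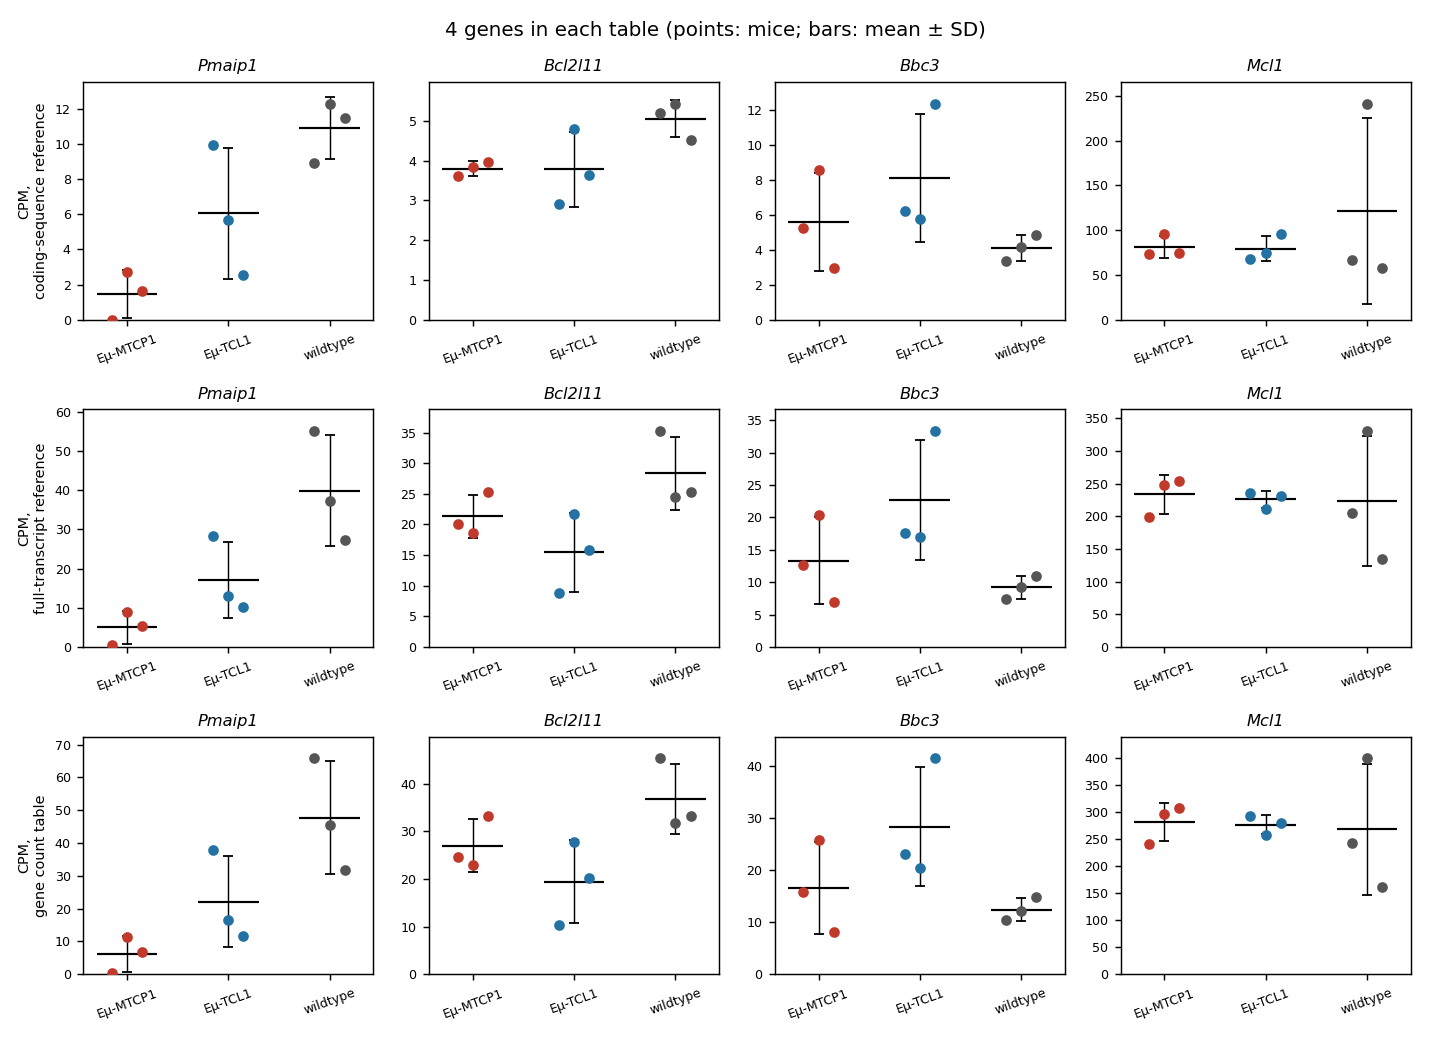
CPM of Pmaip1, Bcl2l11, Bbc3 and Mcl1 in each mouse, with 1 row of panels for each of 3 tables and linear axes from 0. Points are mice and bars are mean ± SD (n = 3). Pmaip1 keeps the Eµ-MTCP1 mice below wildtype in every row, and the high wildtype point of Mcl1 is mouse Z2755.

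Bcl2l11 (ENSMUSG00000027381, chr2:128126038-128162547) encodes BIM, the BH3-only protein that removes B cells after antigen receptor signalling. Only 21 to 50 reads per library fell on its coding sequence. Eµ-MTCP1 mice had 3.61, 3.84 and 3.96 CPM, Eµ-TCL1 mice 2.91, 4.79 and 3.64 CPM, and wildtype mice 5.20, 5.43 and 4.53 CPM. The Eµ-MTCP1 mice lay below wildtype, and the log2 fold changes were -0.41 ± 0.40 in Eµ-MTCP1 and -0.42 ± 0.40 in Eµ-TCL1 mice (edgeR adjusted p = 0.564 and 0.566). The gene count table held 102 to 556 reads, with 24.6, 22.99 and 33.3 CPM in the Eµ-MTCP1 mice, 10.3, 27.7 and 20.2 CPM in the Eµ-TCL1 mice and 45.4, 31.8 and 33.3 CPM in wildtype mice. There it was the Eµ-TCL1 mice that lay below wildtype, by a log2 fold change of -0.92 ± 0.34 (unadjusted p = 0.0202, edgeR adjusted p = 0.116), and the Eµ-MTCP1 value was -0.45 ± 0.34 (adjusted p = 0.430). By TPM on the full-transcript reference it was 4.54, 4.45 and 6.23 in Eµ-MTCP1, 2.21, 5.93 and 5.21 in Eµ-TCL1 and 13.3, 14.1 and 9.08 in wildtype mice, with no overlap between transgenic and wildtype mice. On its protein-coding transcripts alone it was 3.94 to 5.50, 1.74 to 5.32 and 6.36 to 8.42 TPM, a smaller distance.

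Bbc3 (ENSMUSG00000002083, chr7:16308393-16318205) encodes PUMA, a p53 and FOXO target. Its values were 5.25, 8.52 and 2.97 CPM in the Eµ-MTCP1 mice, 6.22, 5.77 and 12.3 CPM in the Eµ-TCL1 mice and 3.35, 4.13 and 4.83 CPM in wildtype mice. All Eµ-TCL1 mice were above wildtype, while Eµ-MTCP1 mice lay on both sides. The log2 fold change was 0.98 ± 0.49 in Eµ-TCL1 (edgeR adjusted p = 0.246) and 0.45 ± 0.49 in Eµ-MTCP1 mice (adjusted p = 0.605). Without C1594, the highest library, the Eµ-TCL1 value was 0.55. In the gene count table the levels were 23.2, 20.4 and 41.5 CPM in Eµ-TCL1 and 10.4, 12.1 and 14.7 CPM in wildtype mice, a log2 fold change of 1.19 ± 0.42 (unadjusted p = 0.0169, adjusted p = 0.105). The full-transcript reference gave 1.30 ± 0.41 (adjusted p = 0.0806), and DESeq2 on the gene count table called it (1.19, adjusted p = 0.0464). With edgeR on the gene count table the value without C1594 was 0.82 (adjusted p = 0.333), and of the 9 omissions the 1 without Eµ-MTCP1 mouse Z2641 passed (adjusted p = 0.0454).

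Bid (ENSMUSG00000004446, chr6:120891930-120916853) links death receptors to mitochondria once caspase-8 has cut it. Eµ-MTCP1 mice had 47.1, 26.1 and 28.7 CPM, Eµ-TCL1 mice 45.4, 53.8 and 44.7 CPM, and wildtype mice 33.3, 42.6 and 40.8 CPM. The Eµ-TCL1 mice were above wildtype on the coding-sequence reference but overlapped with it in the gene count table. The log2 fold changes were -0.20 ± 0.24 in Eµ-MTCP1 and 0.30 ± 0.24 in Eµ-TCL1 mice (edgeR adjusted p = 0.659 and 0.482). Between the transgenic groups it was 0.50 ± 0.24 (unadjusted p = 0.0678, adjusted p = 0.789).

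**Figure D3:**
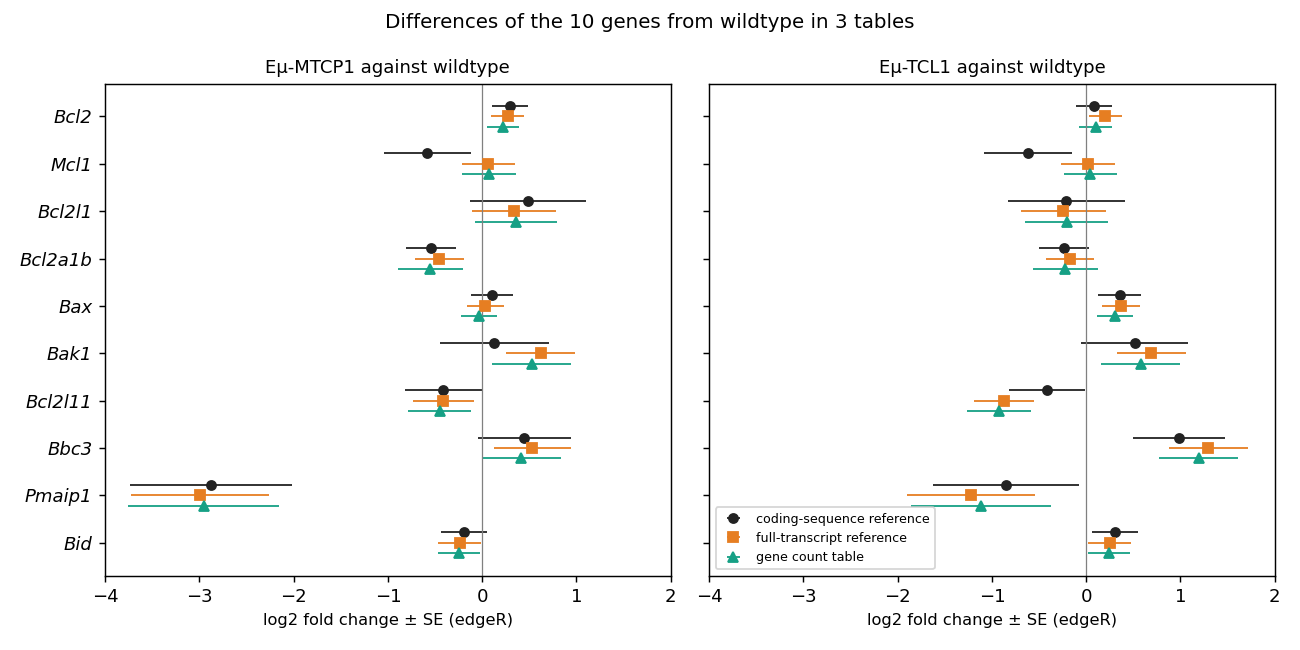
Log2 fold change with its standard error (edgeR) of each of the 10 genes against wildtype, at left for Eµ-MTCP1 and at right for Eµ-TCL1 mice, in 3 tables shown by marker shape. Pmaip1 in Eµ-MTCP1 mice lies near -3 in all tables, and Mcl1 lies at -0.58 and -0.61 on the coding-sequence reference and near 0 in the other tables.

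Levels of different genes were compared as TPM, which divides by length, on the full-transcript reference. In wildtype mice Bax came first at 200.9 ± 10.9 TPM (SD, n = 3), followed by Mcl1 at 167 ± 158, Bcl2a1b at 102 ± 13.6, Bid at 46.4 ± 10.4 and Bcl2 at 32.7 ± 7.33 TPM. Mcl1 ranged from 70.0 to 350 TPM and so overlapped with both Bax and Bcl2a1b, and Bid overlapped with Bcl2. Pmaip1 followed at 21.3 ± 5.43, Bbc3 at 13.6 ± 0.752, Bcl2l11 at 12.2 ± 2.69, Bcl2l1 at 3.24 ± 1.49 and Bak1 at 1.99 ± 0.320 TPM, where Bbc3 overlapped with Bcl2l11 and Bcl2l1 with Bak1. In Eµ-MTCP1 mice Pmaip1 was last at 2.18 ± 1.82 TPM and overlapped with Bak1 at 2.33 ± 1.102 TPM. In Eµ-TCL1 mice Pmaip1 was seventh at 9.24 ± 5.45 TPM, below Bbc3 at 31.3 ± 8.47 TPM and overlapping with Bcl2l11 at 4.45 ± 1.97 TPM. Bax, Mcl1 and Bcl2a1b held the first 3 places in each of the 3 groups. Part of this TPM lay on transcripts not annotated as protein-coding, 52.3 to 57.2% of Bbc3 and 30.0 to 49.7% of Bcl2l11 in wildtype mice and up to 89.2% of Bak1 (Z2641). With protein-coding transcripts alone, an alternative chosen after seeing the data, wildtype Bbc3 was 6.15 ± 0.595 and Bcl2l11 7.29 ± 1.05 TPM, in the opposite order and overlapping. In Eµ-MTCP1 mice the mean of Bak1, 1.26 ± 0.755 TPM, was then below that of Pmaip1, again with overlap (0.388 to 1.72 against 0.279 to 3.90 TPM).

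The balance of pro-survival to pro-death members was summarised as the log2 ratio of their summed TPM, as a description with no test. On the coding-sequence reference it was -0.13, -0.28 and -0.51 in Eµ-MTCP1, -0.58, -0.66 and -0.89 in Eµ-TCL1 and -0.21, 0.04 and -1.05 in wildtype mice. The group means were -0.31 ± 0.19, -0.71 ± 0.16 and -0.40 ± 0.57 (SD, n = 3), and the wildtype range covered both transgenic groups. The difference from wildtype was 0.10 in Eµ-MTCP1 and -0.31 in Eµ-TCL1 mice, both smaller than the wildtype SD. Leaving out single mice moved the former over -0.22 (without Z2785) to 0.32 (without Z2755) and the latter over -0.63 to -0.08 (without the same mice). The weighting of the members mattered for the Eµ-MTCP1 mice: with Bax, the largest term, left out, they lay at 1.47 to 1.68 and the wildtype mice at 0.16 to 1.01, a difference of 0.81, and the mean of log2(TPM + 1) gave a difference of 0.69. Up to 59.1% of Bid TPM on this reference came from at most 14.7 reads on a fragment of 157 bases. On the full-transcript reference the wildtype values were -0.39, 0.62 and -0.49, with the high value in Z2755, and the group means were -0.16 ± 0.24 (Eµ-MTCP1), -0.53 ± 0.13 (Eµ-TCL1) and -0.09 ± 0.61 (wildtype). With Mcl1 left out on that reference, the wildtype values drew together at -1.03, -1.13 and -1.16, and the Eµ-MTCP1 and Eµ-TCL1 means were -1.11 ± 0.36 and -1.45 ± 0.30. The Eµ-TCL1 mice, at -1.31, -1.25 and -1.80, then lay below wildtype and the Eµ-MTCP1 mice on both sides. On the coding-sequence reference without Mcl1 the groups overlapped, with -1.27, -1.35 and -1.86 in the Eµ-TCL1 mice and -0.80, -1.56 and -1.61 in the wildtype mice, so this order was not shared by the references.

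**Figure D4:**
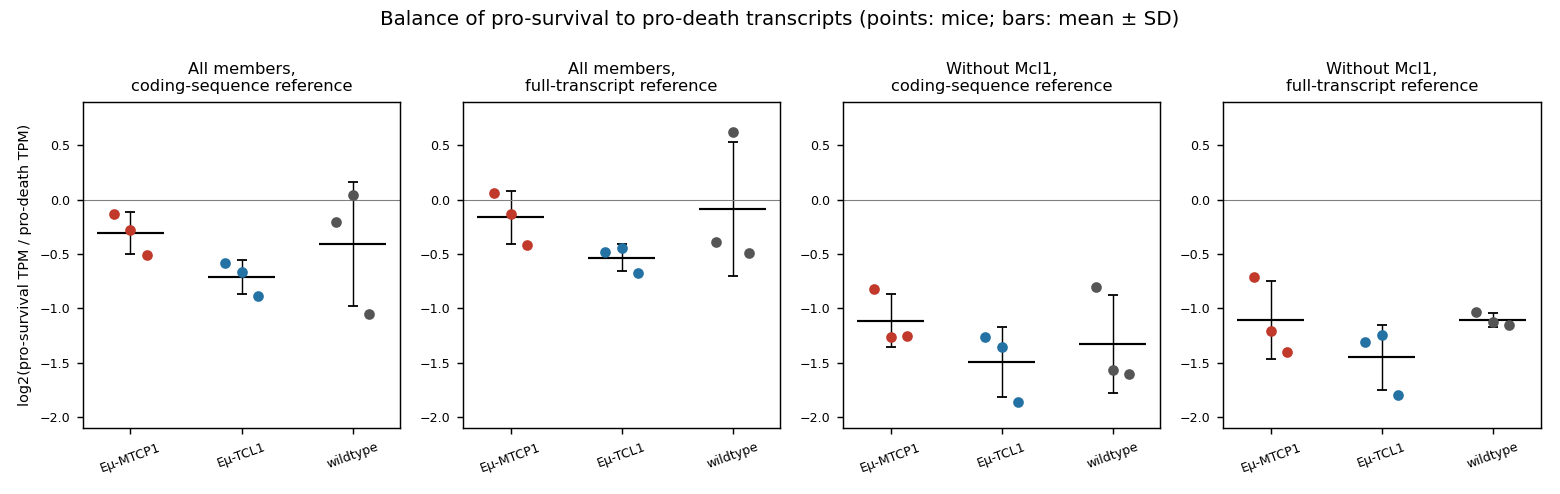
Log2 ratio of summed pro-survival to summed pro-death TPM in each mouse, for all 10 genes and without Mcl1, on both references. Points are mice, bars are mean ± SD (n = 3), and the grey line marks equal sums. Wildtype values spread from -1.05 to 0.04 in the first panel and from -1.16 to -1.03 in the last.

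Ratios of partner genes were read in the same way. The ratio of Bcl2 to Bcl2l11 TPM on the full-transcript reference was 8.26, 6.40 and 6.51 in Eµ-MTCP1, 15.8, 5.21 and 7.12 in Eµ-TCL1 and 2.06, 2.92 and 3.27 in wildtype mice. All 6 transgenic mice lay above the wildtype mice. With protein-coding transcripts alone the ratio was 7.22 to 9.19, 5.81 to 20.03 and 3.25 to 5.80, where Eµ-TCL1 mouse B4437 and wildtype mouse Z2755 were nearly equal. On the coding-sequence reference the ratio was 8.06 to 14.2, 9.84 to 17.5 and 5.99 to 8.81, so that Eµ-MTCP1 mouse Z2606 fell within the wildtype range. The ratio of Mcl1 to Pmaip1 TPM was 26.3 to 300 in Eµ-MTCP1, 5.88 to 24.1 in Eµ-TCL1 and 3.83 to 13.2 in wildtype mice on the full-transcript reference, where the value of 300 rests on 6 Pmaip1 reads in Z2551.

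Isoforms were described by their share of each gene's TPM. For Mcl1, the transcript of 331 residues took 56.4 to 81.6% of TPM in wildtype and Eµ-MTCP1 mice other than Z2755 on the coding-sequence reference, 95.5% in Z2755, and 65.2, 37.0 and 40.3% in Eµ-TCL1 mice. On the full-transcript reference Z2755 instead had 34.8% on that transcript, against 58.8 to 90.3% in the other 8 libraries, so the split of its excess differed between references. On the coding-sequence reference Bcl2 was divided between a transcript of 236 residues, with 29.3 to 51.5% of TPM, and another of 199 residues. The Bax transcript of 192 residues took 85.5 to 93.3% of Bax TPM there. For Bcl2l11 the longest form, of 196 residues, took 17.9 to 82.4% of TPM on at most 50 reads of the gene per library, too few to rank the groups.

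Other members of the family were read from a wider list of 12 effectors and BH3 genes, of which 8 passed the filter. Among them Bnip3, a BH3-like mitophagy receptor induced by hypoxia, was the 1 gene that edgeR called on the coding-sequence reference, lower in each transgenic group, a share near the 9.48% and 9.20% of all genes. DESeq2 also called Bad for both groups together (0.73 ± 0.24 with edgeR) and Bnip3l, a related mitophagy receptor, in Eµ-TCL1 mice (log2 fold change -0.54 ± 0.17 and adjusted p = 0.0738 with edgeR). With Bnip3 that made 2 of 11 in each of these comparisons, against 16.6% and 13.2% of all genes. For both groups together Bnip3l was called lower in the gene count table (-0.49, adjusted p = 0.0497). Bnip3 had 2, 7 and 1 reads in Eµ-MTCP1, 9, 4 and 3 in Eµ-TCL1 and 53, 69 and 29 in wildtype mice. The log2 fold change was -3.56 ± 0.76 (edgeR adjusted p = 0.0164) in Eµ-MTCP1 and -3.07 ± 0.73 (adjusted p = 0.0253) in Eµ-TCL1 mice, and the gene count table gave -3.42 (adjusted p = 0.0272) and -2.59 (adjusted p = 0.0642). The CLEAR filter dropped it in Eµ-MTCP1 mouse Z2641. Bad, whose protein is held inactive by AKT phosphorylation, had 21.99, 23.4 and 27.9 CPM in the Eµ-MTCP1 mice, 19.4, 26.2 and 24.9 CPM in the Eµ-TCL1 mice and 9.91, 16.9 and 16.6 CPM in wildtype mice. All transgenic mice lay above wildtype, but the log2 fold changes of 0.75 ± 0.27 and 0.70 ± 0.27 did not pass in edgeR (adjusted p = 0.117 and 0.140, and 0.0742 for both groups together). Bmf, a cytoskeleton-linked BH3 gene, had 1 to 13 reads, with log2 fold changes of -0.82 ± 0.85 and -0.65 ± 0.84 (adjusted p = 0.586 and 0.680). Bik had 3 to 5 reads in Eµ-MTCP1, 6 to 22 in Eµ-TCL1 and at most 1 in wildtype mice in the gene count table. Hrk had 2 reads or fewer in every library.

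The machinery downstream of the family was read from lists chosen with earlier results of these data known. Of 12 genes of mitochondrial release and the apoptosome, 1 was called in Eµ-MTCP1 mice, where 9.48% of all genes were. This was Casp9, which rose (log2 fold change 0.89 ± 0.23, edgeR adjusted p = 0.0368). In Eµ-TCL1 mice it was 0.55 ± 0.23 (adjusted p = 0.162). None was called there by edgeR, DESeq2 or limma-voom, and 5 had an unadjusted p under 0.05 in edgeR (25.1% of all genes). With both groups together Casp9 (0.72, adjusted p = 0.0414) and Diablo (0.56, adjusted p = 0.0487) were higher and Endog (-0.72, adjusted p = 0.0366) was lower, and 9 were not called (13.1% of all genes called). Limma-voom did not call Diablo, and in the gene count table Diablo (0.39, adjusted p = 0.173) and Endog (-0.97, adjusted p = 0.0592) were not called. Casp9, the initiator caspase of the apoptosome, had 23.95, 28.98 and 27.8 CPM in the Eµ-MTCP1 mice, 21.2, 19.3 and 23.7 CPM in the Eµ-TCL1 mice and 13.5, 17.4 and 12.7 CPM in wildtype mice, without overlap between transgenic and wildtype mice. None of 9 tested genes of caspases and the caspase-activated DNase was called against wildtype by edgeR, DESeq2 (10 tested) or limma-voom, with 1, 0 and 1 at an unadjusted p under 0.05 in edgeR for Eµ-MTCP1, Eµ-TCL1 and both groups. Over all genes edgeR called 9.48%, 9.20% and 13.1%, and 25%, 25.1% and 29.1% had such a p. Of 10 inhibitors of apoptosis, edgeR called 1 in Eµ-MTCP1 mice (9.48% of all genes) and 7 had an unadjusted p under 0.05 (25%). DESeq2 called 4 of 10 there, Birc3, Naip1, Naip6 and Xaf1 (12.9% of all genes). Birc3 fell in Eµ-MTCP1 mice (-0.95 ± 0.23, adjusted p = 0.0276) and was -0.40 ± 0.23 in Eµ-TCL1 mice (adjusted p = 0.312), and with both groups together Naip6 (1.57, adjusted p = 0.0322) and Naip2 (0.84, adjusted p = 0.0449) were higher and Birc3 (-0.68, adjusted p = 0.0438) lower (13.1% of all genes called). In Eµ-TCL1 mice edgeR called 0 and 4 had an unadjusted p under 0.05 (25.1%). There DESeq2 called Naip2 and Naip6 (2 of 10, 13.2% of all genes), and limma-voom Naip6 (1 of 10, 8.0%). The gene count table called Naip2 and Naip6 higher in each transgenic group alone. With Birc3 this was 3 of 9 tested in Eµ-MTCP1 mice, and it was 2 of 9 in Eµ-TCL1 mice (10% and 10% of all genes). Naip2 and Naip6 belong to a multigene family, so their split is uncertain.

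In the death receptor arm Ripk3, the kinase of necroptosis, was the 1 gene of 8 tested that edgeR called on the coding-sequence reference, against 9.48% and 9.20% of all genes. DESeq2 also called Fas in Eµ-MTCP1 (log2 fold change -2.24 ± 0.71 and adjusted p = 0.0781 with edgeR) and Tnfrsf21 in Eµ-TCL1 mice (-1.99 ± 0.76, adjusted p = 0.132). It called 2 of 11 in each (12.9% and 13.2% of all genes). In the gene count table edgeR called 3 of 11 in Eµ-MTCP1 mice, Fas, Tnfrsf10b and Ripk3 (10% of all genes). In Eµ-TCL1 mice it called 2 of 11, Tnfrsf10b and Ripk3 (10%), and all these calls were lower. Ripk3 had 24.1, 15.8 and 32.9 CPM in the Eµ-MTCP1 mice, 28.9, 35.5 and 23.4 CPM in the Eµ-TCL1 mice and 76.6, 102 and 84.9 CPM in wildtype mice. All transgenic mice lay below wildtype, with log2 fold changes of -1.86 ± 0.28 (edgeR adjusted p = 0.00265) and -1.59 ± 0.28 (adjusted p = 0.0058). The p53 pathway list, which holds regulators of Bbc3 and Pmaip1, had 1 call per transgenic group of 12 tested, near the 9.48% and 9.20% of all genes. It had 5 and 6 at an unadjusted p under 0.05 (25% and 25.1%), and DESeq2 called 2 of 14 in each group (12.9% and 13.2%). With edgeR the gene count table gave 2, 3 and 4 calls of 12 in Eµ-MTCP1, Eµ-TCL1 and both groups (10%, 10% and 14% of all genes), which besides Sesn1 and Phlda3 were Gtse1, a p53-binding cell cycle protein, higher in Eµ-MTCP1 (1.61, adjusted p = 0.0407) and both, and Zmat3, a p53 target, higher in Eµ-TCL1 (1.52, adjusted p = 0.0368) and both. Sesn1 fell in Eµ-MTCP1 mice (-1.74 ± 0.37, edgeR adjusted p = 0.0162) and was -1.26 ± 0.36 in Eµ-TCL1 mice (adjusted p = 0.0569), where DESeq2, limma-voom and the gene count table called it. Phlda3 rose in Eµ-TCL1 mice (3.12 ± 0.77, edgeR adjusted p = 0.03; not called by limma-voom) and was 1.76 ± 0.78 in Eµ-MTCP1 mice (adjusted p = 0.192). Both were called for the groups together (-1.50 and 2.44, adjusted p = 0.00878 and 0.0475). Among FOXO and stress regulators of BH3 genes, none of 9 was called by edgeR in either transgenic group alone. An unadjusted p under 0.05 was seen for 2 and 5 (25% and 25.1% of all genes), and DESeq2 called 1 and 2 of 10 (12.9% and 13.2%). Foxo1, a driver of Bcl2l11 and Bbc3 transcription, was lower with both together (-0.997 ± 0.275, adjusted p = 0.0384), 1 of 9 against 13.1% of all genes. None of 13 tested genes of MCL1 and BIM protein turnover was called with edgeR on the coding-sequence reference. In each comparison with wildtype 5 had an unadjusted p under 0.05 (25%, 25.1% and 29.1% of all genes). DESeq2 called 0, 2 and 1 of 14 (12.9%, 13.2% and 16.6%). With edgeR the gene count table called 1 of 13 in each comparison with wildtype (10%, 10% and 14%). These were Dynll2, higher in Eµ-MTCP1 and both groups, and Btrc, higher in Eµ-TCL1 mice. In the gene count table edgeR also called the death receptor Tnfrsf10b lower (-2.09 and -1.69) and the stress factor Atf5 higher (2.86 and 3.83) in Eµ-MTCP1 and Eµ-TCL1 mice, both of which missed the filter on the coding-sequence reference.

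The labelled B cell identity was checked with 6 B cell markers, whose summed CPM was 8582 to 10230 CPM in Eµ-MTCP1, 6512 to 9081 CPM in Eµ-TCL1 and 7335 to 8569 CPM in wildtype mice. None was called with edgeR, and 0, 2 and 2 had an unadjusted p under 0.05 in Eµ-MTCP1, Eµ-TCL1 and both, against 25%, 25.1% and 29.1% of all genes. The 5 markers of B1 and leukemic B cells summed to 536 to 639, 498 to 719 and 50.9 to 81.7 CPM, and 4 of them were higher with both groups together (13.1% of all genes called). Neutrophil markers summed to 152 to 2761 CPM in Eµ-MTCP1, 29.8 to 286 CPM in Eµ-TCL1 and 353 to 4974 CPM in wildtype mice, so that all Eµ-TCL1 mice lay below all wildtype mice. None of 7 tested was called with edgeR, and 0, 4 and 2 had an unadjusted p under 0.05 in Eµ-MTCP1, Eµ-TCL1 and both. Of 9 monocyte and macrophage markers 0, 5 and 4 did. Over all genes 25%, 25.1% and 29.1% did, so both counts in Eµ-TCL1 mice were above the share of all genes. Monocyte and macrophage markers summed to 303 to 806, 134 to 1250 and 702 to 1226 CPM with 1 lower in Eµ-TCL1 and in both groups together, and T cell markers to 5.25 to 24.4, 9.80 to 57.0 and 3.58 to 9.37 CPM. Dendritic cell markers summed to 3.63 to 11.8, 2.10 to 7.05 and 14.5 to 31.7 CPM, and 1 of them was called lower in Eµ-TCL1 and in both groups together and 0 in Eµ-MTCP1 mice. Plasma cell markers summed to 332 to 2914, 102 to 1959 and 776 to 1305 CPM with 1 called higher in each comparison. NK cell markers stayed at or below 38.2 CPM, erythroid markers at or below 321 CPM and platelet markers at or below 2.46 CPM, with Ppbp at 0 in every library. The part of these cells in the differences of the family, Bnip3 and Ripk3 was not tested.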

How the data were processed

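Each of the 9 mice gave 1 library of splenic B cell RNA, grouped by the deposited labels. The authors ran Salmon 1.0.0 on 2 references (57871 and 140748 transcripts), and its expected counts and TPM were deposited per transcript, with the effective lengths that served as offsets in 1 alternative. Whole counts per gene, and those passing the CLEAR coverage filter, were deposited too. The authors' notes name HISAT2 2.0.6, featureCounts and build GRCm38.p4, and DESeq2 for their normalized log2 values. Their fold changes and p-values were not used.

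Gene sums were formed through GENCODE M21 (442 and 884 transcripts without a match were left out, at most 0.291% of coding-sequence reads) and rounded. The filterByExpr rule kept 11165 of 22154 genes. With TMM factors of 0.911 to 1.18, a single 3-group model over the 9 libraries was fitted in edgeR 4.0.16 under R 4.3.3. Its two-sided quasi-likelihood tests were adjusted by Benjamini-Hochberg. The SE is the log2 fold change divided by the square root of F. P-values measure the spread between mice. DESeq2 1.42.0, limma 3.58.1 and other tables, filters, scalings and omissions were alternatives. In data simulated for Eµ-MTCP1 against wildtype (10932 genes), 73.2% of 4-fold and 86.6% of 8-fold changes were recovered.

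Members and lists were chosen with earlier results of these data known. Named genes are the 10 members, 8 further family genes whatever their result and at most 4 genes per list called by edgeR on the coding-sequence reference, by size of change. Genes named only for a call by DESeq2, limma-voom or in the gene count table, such as Tnfrsf10b and Atf5, were added after their values were seen. So were the genes most like Pmaip1. Likeness is Pearson's r of log2 CPM (prior count 2). The limit of 3 reads covers counting error only.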

Additional observations from a re-analysis of the deposited data

How the results depend on the processing

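No paired analysis was possible because the replicate numbers only follow the order of the samples. Of the values for single genes, 924 kept their direction and side of the threshold, 51 turned direction, 18 newly passed and 5 no longer passed. The cause was not tested. Genes called in Eµ-MTCP1 against wildtype numbered 1624 with DESeq2, 1965 in the gene count table without a filter and 2219 there with DESeq2. For Eµ-TCL1 against wildtype these were 1662, 1928 and 2209, for both groups 2584 (without a filter) and 2815 (DESeq2) in the gene count table. Between the transgenic groups 73 were called with DESeq2, 9 with limma-voom, 16 without a filter, and 111 (no filter) and 97 (DESeq2) in the gene count table. Leaving out single mice gave 525 to 1028, 517 to 1240, 763 to 1613 and 5 to 8 genes called. Counts changed by over 1.5 times without Z2754 (525, 517 and 763), Z2755 (567, 550 and 802), Z2551 (599 in Eµ-MTCP1) and C1594 (658 in Eµ-TCL1, and 8 between the transgenic groups). Instead of 0, 1 member (Pmaip1) was called in Eµ-MTCP1 mice with DESeq2, library size alone, no filter, the full-transcript reference, length offsets and the gene count table with edgeR, without a filter and with DESeq2. In both groups 1 (Pmaip1) was called with DESeq2, limma-voom, the full-transcript reference, length offsets and the unfiltered gene count table, and in Eµ-TCL1 mice 1 (Bbc3) with DESeq2 on the gene count table. With edgeR on that table Bbc3 in Eµ-TCL1 also passed without Z2641 (adjusted p = 0.0454), and Pmaip1 in both groups without B4376 (0.0404), Z2606 (0.0287) or Z2551 (0.0221). The balance difference of Eµ-MTCP1 mice moved to 0.693 (mean log2) and 0.811 (without Bax). Without single mice it ran from -0.223 to 0.321, turning direction without Z2785, and that of Eµ-TCL1 mice from -0.628 to -0.084. Mcl1 against wildtype turned to 0.066, 0.073, 0.045 and 0.071 (Eµ-MTCP1), 0.017, 0.045, 0.020 and 0.041 (Eµ-TCL1) and 0.042, 0.059, 0.032 and 0.056 (both) on the full-transcript reference and in the gene count table as such, without a filter and with DESeq2. Under library size alone Bcl2 (Eµ-TCL1) turned to -0.055, Bcl2l1 (both) to -0.081, Bax and Bak1 (Eµ-MTCP1) to -0.13 and -0.12, Bid (both) to -0.13, and between the transgenic groups Mcl1 to 0.057 and Bcl2l11 to 0.090. In the gene count table as such, without a filter and with DESeq2, Bax (Eµ-MTCP1) turned to -0.036, -0.061 and -0.040 and Bid (both) to -0.00020, -0.023 and -0.0055, and length offsets gave -0.19 for Bid. Leaving out single mice turned Bcl2 in Eµ-TCL1 (-0.0085 to 0.14), Mcl1 in Eµ-MTCP1 (-0.92 to 0.36), Eµ-TCL1 (-0.95 to 0.33), both (-0.94 to 0.35) and between transgenic groups (-0.19 to 0.10), Bcl2l1 in Eµ-TCL1 (-0.70 to 0.40) and both (-0.24 to 0.74), Bax in Eµ-MTCP1 (-0.067 to 0.27), Bak1 in Eµ-MTCP1 (-0.20 to 0.38) and both (-0.0028 to 0.57), Bcl2l11 between transgenic groups (-0.22 to 0.15), Bbc3 in Eµ-MTCP1 (-0.027 to 0.73, and -0.058 to 0.75 in the gene count table) and Bid in both (-0.10 to 0.10). A filter of 10 CPM kept 5 members and gave no value for Bcl2l1, Bak1, Bcl2l11, Bbc3 or Pmaip1, and a fit of only the groups compared gave none for both groups together. The gene count table without a filter, with DESeq2 and with single omissions, and the full-transcript balance without Mcl1 or on protein-coding transcripts alone, were added after seeing the data. Over its 22 alternatives Pmaip1 in Eµ-MTCP1 against wildtype ranged from -3.82 to -2.31, with adjusted p from 0.0005 to 0.153 and 8 past the threshold. Few reads limit Bak1, Bcl2l1, Bcl2l11 and Pmaip1 on the coding-sequence reference.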
